A study of Homo sapiens with 30 samples.

Results

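Replicative senescence is the state that cultured fibroblasts reach after prolonged division. Here 2 times labelled as late in one replicative course of WI-38 cells were compared with each other. WI-38 is an established diploid line of human lung fibroblasts. Both arrays labelled replicative 1008 h were set against both arrays labelled replicative 1368 h, which made 4 of the 30 arrays of the series, and every feature on the array was tested. The arrays were chosen by their titles alone, with no measured value used. Total RNA was read on Affymetrix HTA 2.0 arrays, which carry probes for coding and non-coding transcripts.

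All cells were grown in medium with 10% serum, 5% carbon dioxide and 3% oxygen, and the labels say that the replicative cells were brought to proliferative exhaustion under 21% oxygen. Both groups compared therefore share the line, the medium and the label of replicative senescence, and their labels differ in the hours only. The rest of the course holds pairs of arrays at T0, 144 h, 264 h, 432 h, 624 h, 792 h and 2112 h. A separate course of 12 arrays followed doxycycline-inducible RAF cells, labelled with 100 ng/ml doxycycline at every time but T0. That course was not used for the main comparison. Nothing states whether the 2 arrays of a replicative time came from separate cultures, so the p-values measure the spread between these arrays, which may be technical. WI-38 is a single line, and no second strain of fibroblasts was measured.

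Senescent fibroblasts leave the cell cycle through the p53 and CDK inhibitor pathways, and their genes of DNA replication and mitosis are repressed. Many of them also secrete cytokines, chemokines, proteases and growth factors, which together are called the senescence-associated secretory phenotype, or SASP. The interleukin-1 receptor pathway and the transcription factor NF-kB are known to drive much of the SASP in fibroblasts, with IL1A acting upstream of IL6 and CXCL8.

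The values are the authors' deposited values for 52329 features, read as log2 intensities and rounded to steps of 0.1. A difference is given throughout as 1368 h minus 1008 h in log2 units, with the standard error of limma's fit, and it passed the test at a Benjamini-Hochberg adjusted p under 0.05 over all features. The 2 arrays of each time correlated at 0.9954 for 1008 h and 0.9952 for 1368 h, and 34.3% and 31.9% of their rounded values were equal, while arrays of different times in this pair correlated at 0.992 to 0.9928. Each of the 18 replicative arrays was closest to its own partner. All of them had a median of 5.5. Fibroblast markers were measured in all 4 arrays, with VIM at 11.9 and 11.8 at 1008 h and at 12.1 in both arrays at 1368 h, and COL1A1 at 11 and 11.1 at 1008 h and 11 in both at 1368 h. None of 11 epithelial markers passed, where 8.37% of all genes passed in either direction. EPCAM stayed between 3.7 and 3.9, but the means of the 11 markers over the 18 replicative arrays ran from 3.83 to 8.77. No background call can be made from these values, so a low value does not show that a marker was absent.

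Over the labelled hours, mitotic and SASP genes did not run in the order that the name of the course would give. The level of a gene list is used here as the mean, over its members, of each gene's value minus its own mean over the 18 replicative arrays. For 33 genes of G2 and mitosis this level began at 1.77 (T0) and 0.12 (144 h), dropped to -0.87 (264 h) and -0.99 (432 h) and stood at 1.36 (624 h). From 792 h on it was -1.14, then -1.17 ± 0.01 (SD, n = 2) in the 1008 h arrays, -0.38 in both 1368 h arrays and 1.29 in the last pair. The mitotic level was thus higher at the later label of the pair and higher again at the last one, against what advancing replicative senescence would give. For 21 SASP cytokines and chemokines the level lay between -0.75 and -0.21 from T0 to 624 h, stood at 1.39 in the 792 h arrays, and was then 0.9 ± 0.04 (1008 h), 0.39 ± 0.03 (1368 h) and -0.16 (2112 h). The CDK inhibitor gene CDKN2B ran from 11.6 and 11.5 at 792 h to 10.2 and 10.1 at 2112 h. It read 8.9 in both T0 arrays and 7.1 to 7.4 in the arrays from 144 h to 624 h. Whether the labelled hours match the order of the cultures was not tested. The arrays are called by their labelled hours in what follows, and each direction is the labelled one.

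**Figure D1:**
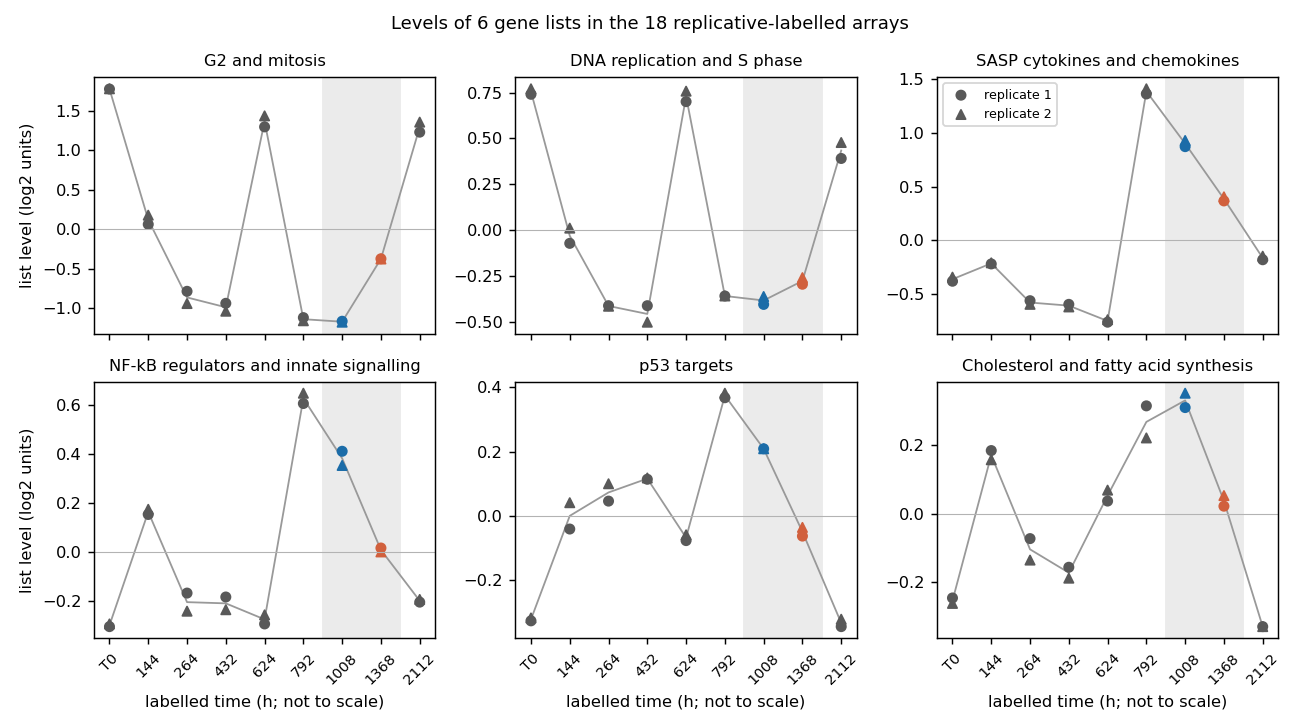
Levels of 6 gene lists (vertical axis, log2 units relative to each gene's mean over the 18 arrays) in the 18 arrays labelled replicative, by labelled time (horizontal axis, hours, not to scale). Points are single arrays, the line joins the means of the 2 arrays, and the grey band holds the 1008 h (blue) and 1368 h (red) arrays. The G2 and mitosis level goes from -1.17 to -0.38 in the band and the SASP level from 0.9 to 0.39.

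Between 1008 h and 1368 h, 27 of 33 mitotic genes, HAS2 and ESM1 rose, and 12 of 21 SASP cytokines, 11 of 19 NF-kB regulators, 12 of 22 p53 targets and 13 of 19 lipid synthesis genes fell. In all, 2729 of 52329 features passed, which is 5.22%, with 1549 up (2.96%) and 1180 down (2.25%). At an unadjusted p under 0.05 there were 8841. Most differences were small. Their median size was 0.35, the smallest that passed was 0.2, and only 36 rises and 37 falls reached 1 log2 unit. The 1008 h and 1368 h arrays did not overlap for any feature that passed; among all features, the 1368 h arrays lay wholly above in 14.5% and wholly below in 14.6%. Counted by gene, with each of 19912 genes represented by its feature of highest mean, 981 rose (4.93%) and 686 fell (3.45%), which makes 8.37% in either direction, and the median difference over all genes was 0.

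Leaving out any 1 of the 4 arrays leaves 1 array in its group, which widens the standard error whatever that array holds. A call lost in such a fit therefore does not show that the difference rested on the array left out. The number of features that passed was lower in each of these fits. It was 1417 without the first 1008 h array, 1424 without the second, 1627 without the first 1368 h array and 1216 without the second. Of the 105 genes that the naming rule picked and that passed, 73 passed in all 4 of these fits and none changed sign in any. The other 32 lost their call in at least 1 of them, 26 without the first 1008 h array, 28 without the second, 24 without the first 1368 h array and 26 without the second. They were ALDOC, CCN3, CD68, CNN1, CST1, CST3, CXCL1, DUSP4, ETV1, H1-5, H4C3, HK2, HMGCS1, HSPE1, IER3, IGFBP7, JUNB, ME1, MMP3, NOTCH1, NRG1, PDGFRB, PFKFB4, PSAP, RIGI, RPS3, SMAD7, TEK, THY1, TIE1, TK1 and TPP1. CD68, CNN1, CST3, CXCL1, H1-5, HK2, HSPE1, JUNB, MMP3, NRG1, PDGFRB, PFKFB4, RIGI, TEK and TPP1 lost their call in all 4 fits.

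**Figure D2:**
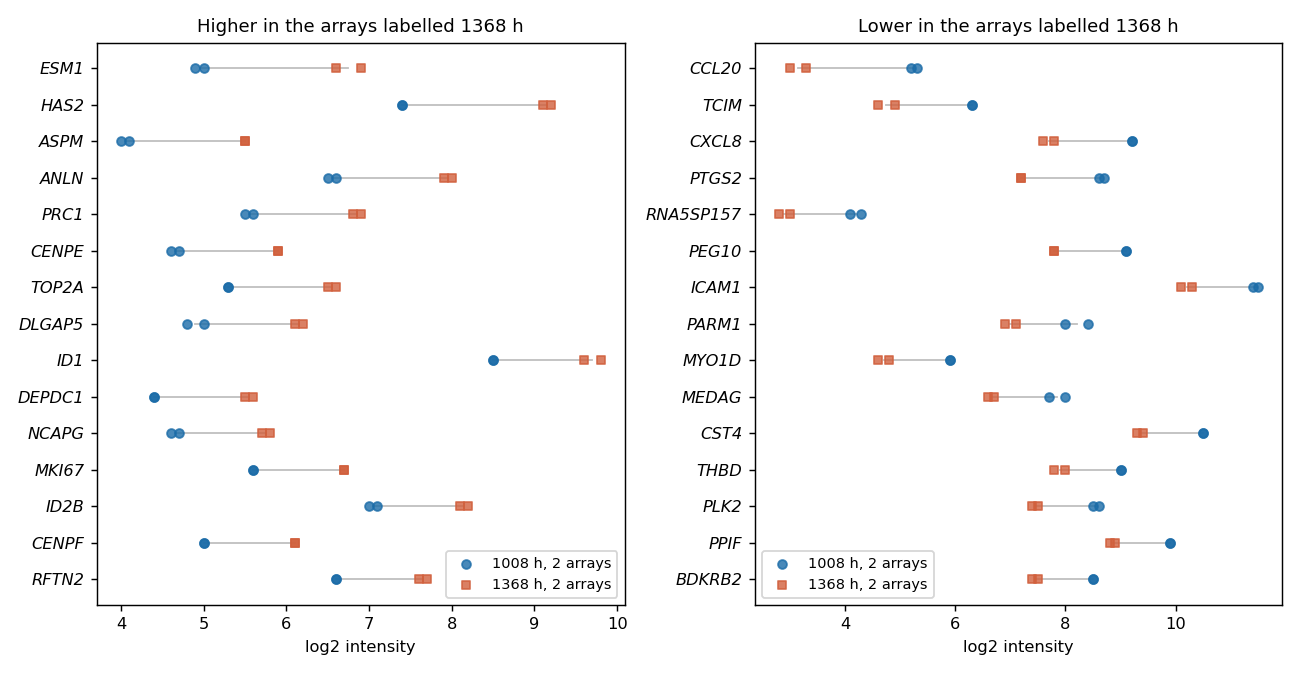
The 15 genes with the largest rises (left) and the 15 with the largest falls (right) among those that passed, with the log2 intensity of each array on the horizontal axis. Blue circles are the 2 arrays of 1008 h, red squares those of 1368 h, and the grey line joins the group means. The 2 groups stand apart for each gene because only such genes were picked, from ESM1 (difference 1.8) to CCL20 (difference -2.1).

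Mitotic genes rose together. Of 33 genes of G2 and mitosis with a feature of their own, 27 rose, none fell and 6 did not pass, against 4.93% of all genes that rose. The median of the 33 differences was 0.9, against 0 for all genes. In total RNA from a mixed culture, more cycling cells and more mitotic RNA in each cycling cell cannot be told apart.

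ASPM, which organises the spindle poles, read 4 and 4.1 in the 1008 h arrays and 5.5 in both 1368 h arrays. The difference was 1.45 ± 0.062 (SE, n = 2 arrays a group; limma adjusted p = 4.5e-07), a 2.73-fold rise. ANLN, the cytokinetic ring protein anillin, read 6.6 and 6.5 at 1008 h and 8 and 7.9 at 1368 h, a difference of 1.4 ± 0.107 (limma adjusted p = 1.97e-05). These were the mitotic genes with the largest rises, and in both the 1368 h arrays were far above the 1008 h pair. PRC1, which bundles the microtubules of the central spindle, read 5.6 and 5.5 and then 6.8 and 6.9. CENPE, the kinetochore motor, read 4.7 and 4.6 and then 5.9 in both. TOP2A, the topoisomerase that untangles sister chromatids, read 5.3 in both and then 6.6 and 6.5. The proliferation marker MKI67, whose protein coats mitotic chromosomes, showed the same pattern, with 5.6 in both 1008 h arrays and 6.7 in both 1368 h arrays.

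Among the kinases and their partners, PLK1 rose from 7.2 and 7.3 to 8.2 and 8.3, a difference of 1 ± 0.134 (limma adjusted p = 0.00102). CCNB1, the cyclin that activates CDK1 for mitotic entry, rose by 0.85 and CCNA2 by 1, while CDK1 itself rose by 0.5, from 3.7 and 3.8 to 4.2 and 4.3. FOXM1, the transcription factor that drives many G2 and mitosis genes, rose by 0.9 (limma adjusted p = 0.000181); it was looked up after the list was seen. The Aurora kinases stood apart from this. AURKA had a difference of -0.05 (limma adjusted p = 0.77) and AURKB of 0.15 (limma adjusted p = 0.347). The other members that did not pass were BIRC5 at 0.45 (limma adjusted p = 0.0552), CENPA at 0.25, KIF23 at 0.25 and CCNF at 0.05. Of the genes with the 15 largest rises, DEPDC1 and NCAPG, a condensin subunit, belong to mitosis as well but were not in the list. DEPDC1 read 4.4 in both arrays and then 5.5 and 5.6, and NCAPG 4.6 and 4.7 and then 5.7 and 5.8.

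The promoters of the mitotic genes hold short elements that are known to bind the cell cycle repressor complex and the factor NF-Y, the CHR element and the CCAAT box. The promoters of 3 of them are printed because their genes are the mitotic members with the largest rises and hold such letters. They cover the 250 bases before the annotated start in RefSeq's GRCh38.p14, 5′ to 3′ on the strand of the gene, and capitals mark TTTGAA (CHR) and CCAAT on either strand. ASPM lies at chr1:197146670-197146919 on the minus strand, PRC1 at chr15:90994536-90994785 on the minus strand and ANLN at chr7:36389612-36389861 on the plus strand.
ASPM: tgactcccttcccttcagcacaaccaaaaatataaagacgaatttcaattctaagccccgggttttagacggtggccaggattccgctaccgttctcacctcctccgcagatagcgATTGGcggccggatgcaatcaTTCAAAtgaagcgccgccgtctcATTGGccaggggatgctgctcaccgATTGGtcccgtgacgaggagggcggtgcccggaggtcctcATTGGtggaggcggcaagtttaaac
PRC1: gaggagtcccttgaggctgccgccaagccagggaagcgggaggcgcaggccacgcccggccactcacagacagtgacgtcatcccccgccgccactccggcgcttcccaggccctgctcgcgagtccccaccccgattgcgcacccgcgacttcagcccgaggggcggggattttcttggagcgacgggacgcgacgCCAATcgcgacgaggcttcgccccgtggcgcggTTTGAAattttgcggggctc
ANLN: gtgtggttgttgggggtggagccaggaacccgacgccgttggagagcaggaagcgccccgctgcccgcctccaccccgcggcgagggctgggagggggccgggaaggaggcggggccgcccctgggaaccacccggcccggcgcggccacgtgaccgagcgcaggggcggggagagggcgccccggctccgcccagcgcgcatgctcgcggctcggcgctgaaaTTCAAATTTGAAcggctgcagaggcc
ASPM holds 1 CHR match and 4 CCAAT matches, PRC1 holds 1 of each, and ANLN holds 2 adjoining CHR matches, 15 to 26 bases before the start. CENPE, which rose by 1.25, held neither string of letters in this window, and other forms of the elements were not searched. Of the 25 risen mitotic genes with a promoter in the RefSeq table, 14 (56.0%) held TTTGAA and 20 (80.0%) held CCAAT, against 9.83% and 34.1% of the promoters of all measured genes and 13.6% and 33.0% of all 27305 promoters in the table. Among all genes that rose, the shares were 14.9% and 37.3%. None of the 25 held an AP-1 or an NF-kB match, and few promoters of all measured genes did, 4.86% and 5.79%. A match says only that these letters stand in the window, and the genes were chosen after their values were seen. The shares among mitotic genes that did not rise were not counted, so the shares above cannot be tied to the rise.

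Of 30 DNA replication genes, 4 rose, 1 fell and 25 did not pass, where 4.93% of all genes rose and 3.45% fell, and the median difference was 0.125. RRM2, the regulated subunit of ribonucleotide reductase, read 6.9 in both arrays and then 7.5 in both, a difference of 0.6 ± 0.072 (limma adjusted p = 0.000493). TK1, thymidine kinase, rose by 0.5, and MCM10 and GINS1, parts of the replication machinery, by 0.35 each. PCNA, the sliding clamp of DNA polymerases, fell from 7.3 in both arrays to 7 in both (limma adjusted p = 0.027), and lost its call without any 1 of the 4 arrays. The mitotic and the replication list were not tested against each other. Of 11 histone genes that are expressed with replication and had a feature of their own, 3 rose and none fell, with 1 rising without the second 1368 h array and 2 without any 1 of the others. The linker histone H1-4 read 7.5 in both arrays and then 8.3 and 8.5, and H4C3 6.9 in both and then 7.5 and 7.8. The third, H1-5, rose by 0.55 from 2.8 in both arrays. Histone genes are short and near-identical, so their probes may read several members.

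Many SASP cytokines fell, with a count that depended on the arrays in the fit. Of 21 members with a feature of their own, 12 fell, 1 rose and 8 did not pass, against 3.45% of all genes that fell, and the median difference was -0.45. Over features at or above the median level alone, which leaves out the dimmer members, the median was -0.9. CCL20, the chemokine that attracts CCR6-bearing lymphocytes, read 5.2 and 5.3 in the 1008 h arrays and 3 and 3.3 in the 1368 h arrays. Its difference of -2.1 ± 0.08 was the largest fall of any feature that passed (limma adjusted p = 2.28e-07), a 4.29-fold drop. CXCL8, the neutrophil chemokine interleukin-8, read 9.2 in both arrays and then 7.6 and 7.8, a difference of -1.5 ± 0.08 (limma adjusted p = 1.68e-06). In both, the 1368 h pair lay far below the 1008 h pair.

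IL6 read 6.4 and 6.3 and then 5.3 in both arrays, a difference of -1.05 ± 0.121 (limma adjusted p = 0.000379). IL1A, the membrane-bound interleukin-1 that starts the cascade, read 10.5 and 10.6 and then 9.5 and 9.7. IL1B read 11.7 and 11.8 and then 10.7 and 10.9, so both interleukin-1 genes fell by 0.95. LIF, an IL6-family cytokine, fell by 0.95 too, from 8.9 in both arrays to 7.9 and 8. CSF3, the granulocyte growth factor, fell by 0.85 and TNFSF15, a TNF-family ligand, by 0.8. The CXC chemokines CXCL1, CXCL5 and CXCL2 fell by 0.5, 0.5 and 0.35, and the IL6-family member IL11 by 0.45. CXCL3, CXCL6, CCL5, CXCL12 and CCL8 had differences between -0.1 and 0.05 and did not pass. CXCL10 at -0.45 (limma adjusted p = 0.123), IL24 at -0.45 (limma adjusted p = 0.0882) and CCL26 at 0.2 did not pass either.

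CCL2, the monocyte chemokine MCP-1, went the other way. It read 7.3 in both 1008 h arrays and 8.3 in both 1368 h arrays, a difference of 1 ± 0.101 (limma adjusted p = 0.000164). At the neighbouring times it was 6.6 in both 792 h arrays and 6.6 and 6.7 at 2112 h, so that 1368 h was the highest of these 4 times. Its values at 144 h, 10.6 and 10.5, were higher still.

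Many NF-kB regulators and targets fell as well. Of 19 members, 11 fell, 1 rose and 7 did not pass, where 3.45% of all genes fell. In a fit of the 8 arrays from 792 h to 2112 h, 10 fell. In a fit of the 4 compared arrays, 8 fell. The median difference was -0.25, or -0.4 without the second 1008 h array and likewise over features at or above the median level alone. PTGS2, the inducible cyclooxygenase, read 8.7 and 8.6 and then 7.2 in both arrays, a difference of -1.45 ± 0.188 (limma adjusted p = 0.000845). ICAM1, the leukocyte adhesion molecule, read 11.5 and 11.4 and then 10.3 and 10.1, a difference of -1.25 ± 0.093 (limma adjusted p = 1.44e-05). IRAK2, a kinase of interleukin-1 and Toll-like receptor signalling, read 9 and 8.9 and then 8 and 8.1. In all 3 the 1368 h arrays lay below both 1008 h arrays. The NF-kB subunits fell by less, REL by 0.6, NFKB1 by 0.4, and NFKB2 and RELB by 0.25 each. The feedback inhibitors fell as well, TNFAIP3, which encodes the ubiquitin editor A20, by 0.5, NFKBIA by 0.45 and NFKBIE by 0.4. TNFAIP6, a hyaluronan-binding secreted protein, was the member that rose, from 5.2 and 5.1 to 5.6 and 5.7.

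Promoters of 3 fallen genes are printed next, since CCL20, CXCL8 and ICAM1 are among the members with the largest falls and carry letters that NF-kB or AP-1 is known to bind. Capitals mark GGNNTTTCC (NF-kB) and TGANTCA (AP-1) on either strand, over the 250 bases before the start in RefSeq's GRCh38.p14. All 3 lie on the plus strand, CCL20 at chr2:227813592-227813841, CXCL8 at chr4:73740319-73740568 and ICAM1 at chr19:10270870-10271119.
CCL20: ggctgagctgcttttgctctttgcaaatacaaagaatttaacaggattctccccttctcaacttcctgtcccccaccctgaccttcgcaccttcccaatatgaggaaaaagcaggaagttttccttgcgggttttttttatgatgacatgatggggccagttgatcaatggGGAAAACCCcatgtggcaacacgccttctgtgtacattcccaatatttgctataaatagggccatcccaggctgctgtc
CXCL8: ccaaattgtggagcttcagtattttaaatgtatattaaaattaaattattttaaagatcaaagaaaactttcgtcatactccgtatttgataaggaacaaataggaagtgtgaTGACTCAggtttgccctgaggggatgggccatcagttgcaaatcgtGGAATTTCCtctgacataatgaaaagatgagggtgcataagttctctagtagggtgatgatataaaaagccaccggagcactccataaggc
ICAM1: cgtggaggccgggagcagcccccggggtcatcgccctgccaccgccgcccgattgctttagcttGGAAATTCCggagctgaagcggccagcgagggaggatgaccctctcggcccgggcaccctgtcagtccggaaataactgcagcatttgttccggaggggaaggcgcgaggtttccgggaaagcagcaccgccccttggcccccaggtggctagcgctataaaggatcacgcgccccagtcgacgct
The NF-kB match begins 79 bases before the start in CCL20, 91 in CXCL8 and 186 in ICAM1, and CXCL8 also has an AP-1 match that begins 137 bases before it. No match in these 3 windows overlaps another. PTGS2 held neither of these strings of letters in this window, and other forms of the sites were not searched. Of the 10 fallen SASP genes with a promoter in the RefSeq table, 6 (60.0%) held the NF-kB letters and 4 (40.0%) the AP-1 letters, against 5.79% and 4.86% of the promoters of all measured genes and 5.48% and 6.6% of all in the table. Of the 9 fallen NF-kB list genes, 5 (55.6%) held the NF-kB letters and 0 the AP-1 letters. Among all 524 fallen genes with a promoter, the shares were 8.4% and 4.2%. These are descriptions of the letters in the window, for genes chosen after their values were seen. The shares among list members that did not fall were not counted, so the shares above cannot be tied to the fall.

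**Figure D3:**
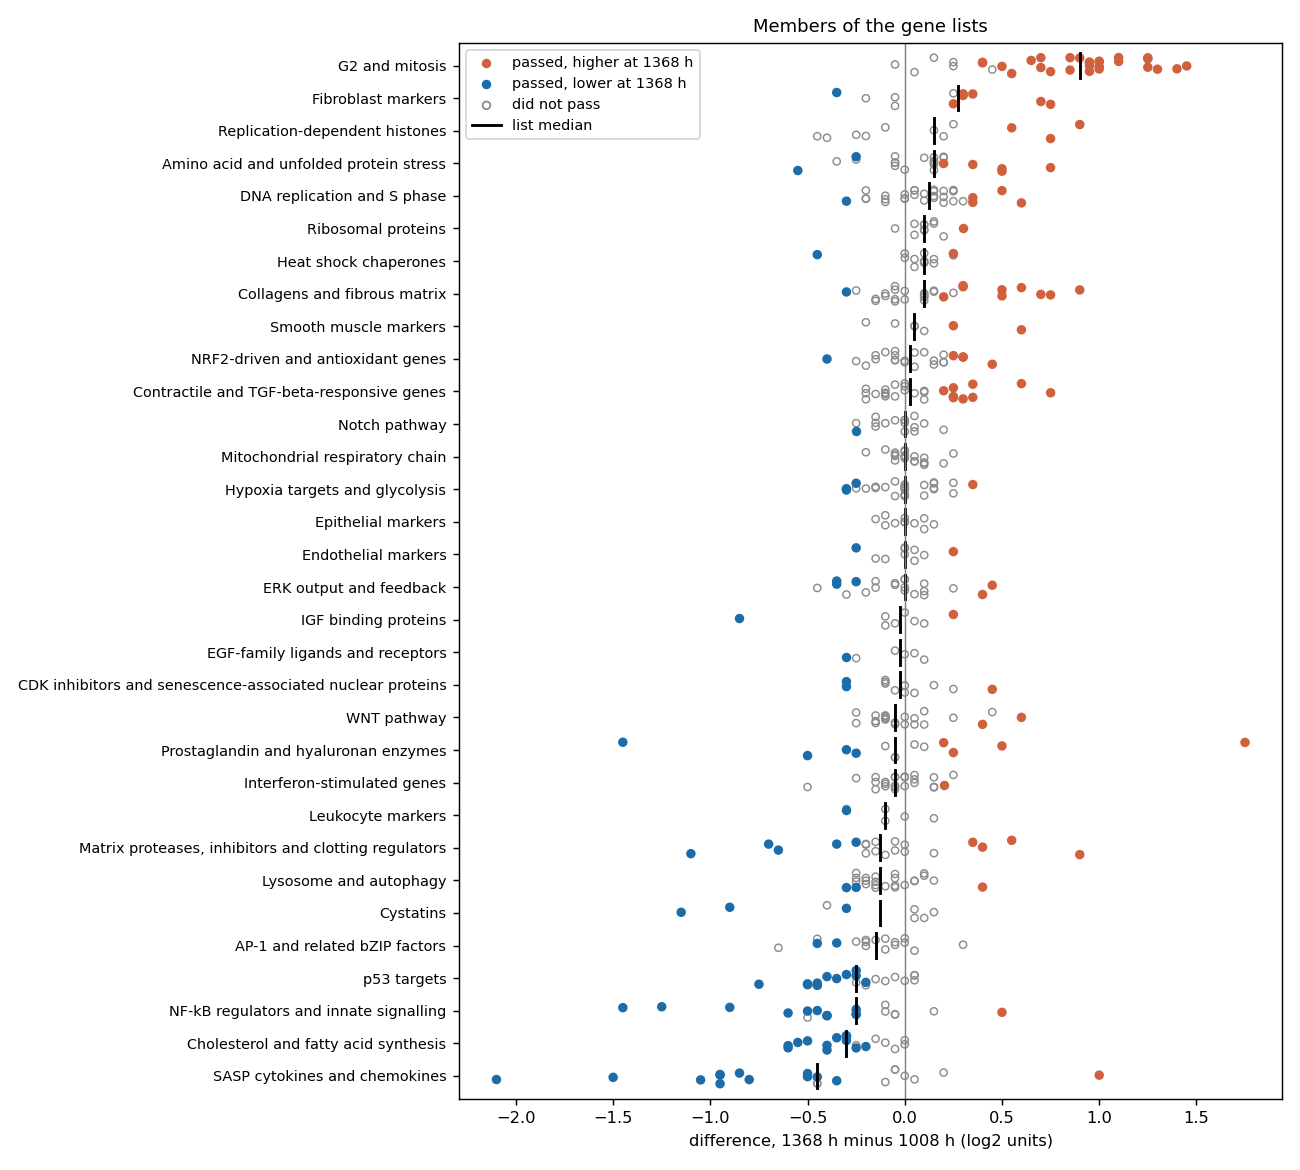
Difference between 1368 h and 1008 h (horizontal axis, log2 units) for each member of 32 gene lists, 1 row a list, ordered by the list's median (black bar). Filled points passed the test (red higher and blue lower at 1368 h), and open points did not pass. The G2 and mitosis list has its median at 0.9 and the SASP list at -0.45, with CCL2 as its only risen member at 1.

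The proteases of the SASP were mixed. Of 20 matrix proteases, inhibitors and clotting regulators, 5 fell and 4 rose, where 3.45% of all genes fell and 4.93% rose. The fallen count was 3 without either 1008 h array or without the first 1368 h array, and the risen count was 2 without the first 1008 h array or the second 1368 h array. THBD, thrombomodulin, read 9 in both arrays and then 7.8 and 8, a difference of -1.1 ± 0.069 (limma adjusted p = 4.64e-06). MMP3, stromelysin-1, fell by 0.7, from 10.6 and 10.7 to 9.9 and 10, while its neighbour in the stromelysin family MMP10 rose by 0.9, from 7 and 7.2 to 7.9 and 8.1. MMP1, the interstitial collagenase, read 12.6 and 12.4 and then 12.5 and 12.4, and did not pass (limma adjusted p = 0.914). The protease inhibitor TFPI2 fell by 0.65 from 11.5 in both arrays, and the lysosomal proteases CTSL and CTSB by 0.35 and 0.25. ADAMTS1, F3 (tissue factor) and TIMP3 rose by 0.55, 0.4 and 0.35.

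Cystatins are secreted inhibitors of cysteine proteases. CST4 read 10.5 in both arrays and then 9.4 and 9.3, a difference of -1.15 ± 0.191 (limma adjusted p = 0.00427), and CST1 read 11.1 and 11.2 and then 10.3 and 10.2. The salivary-type cystatins are near-identical in sequence, so their probes may read more than one of them. CST3 fell by 0.3, and 5 of 8 cystatins did not pass, where 8.37% of all genes passed in either direction. The number that fell was 1 without the second array of either time and 2 without the first 1008 h array. Among IGF binding proteins, IGFBP1 fell from 6.7 and 7.1 to 6 and 6.1 and IGFBP7 rose by 0.25, while IGFBP3 read 10.6 and 10.8 and then 10.6 and 10.9 (limma adjusted p = 0.965).

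Of 22 p53 targets, 12 fell and none rose, where 3.45% of all genes fell, with a median difference of -0.25. In a fit of the 8 arrays from 792 h to 2112 h, 10 fell. In a fit of the 4 compared arrays, 9 fell. With any 1 array left out, fewer fell, and the median lay between -0.275 and -0.225. GDF15, a stress-induced TGF-beta family hormone, read 11.9 in both arrays and then 11.1 and 11.2, a difference of -0.75 ± 0.055 (limma adjusted p = 1.36e-05). DDB2, which recognises ultraviolet lesions, read 8.4 and 8.5 and then 7.9 and 8. PLK3, a stress-responsive polo-like kinase, fell from 9.7 in both arrays to 9.2 in both. The death receptors FAS and TNFRSF10B fell by 0.45 each, as did TP53INP1, and MDM2, the ubiquitin ligase that limits p53, fell by 0.25. PLK2, another polo-like kinase, is not in the list and had one of the 15 largest falls, from 8.6 and 8.5 to 7.4 and 7.5.

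CDKN1A, the p53 target that encodes the CDK inhibitor p21, read 9.5 in both 1008 h arrays and 9.2 in both 1368 h arrays, a difference of -0.3 ± 0.047 (limma adjusted p = 0.00277). CDKN2B, which encodes the inhibitor p15, read 11.6 in both and then 11.3 in both. CDKN2A, the gene of p16 and ARF, read 7 and 7.2 and then 7 in both, and did not pass (limma adjusted p = 0.451). In p21 and p15 both 1368 h arrays thus lay 3 rounding steps below the 1008 h arrays, while those of CDKN2A overlapped. LMNB1, lamin B1, whose loss is a common mark of senescence, read 5 and 5.1 and then 5.3 in both (limma adjusted p = 0.0985). HMGB1, a chromatin protein that leaves the nucleus in senescent cells, rose by 0.45, and HMGB2 had a difference of 0.

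Cholesterol synthesis genes fell in small steps. Of 19 genes of cholesterol and fatty acid synthesis, 13 fell and none rose, where 3.45% of all genes fell, with a median of -0.3. The fallen count was 4 in a fit of the 8 arrays from 792 h to 2112 h. It was also lower with a single array left out, which leaves a lone array in its group. MSMO1, a sterol demethylating oxidase, read 9.7 in both arrays and then 9.1 in both, a difference of -0.6 ± 0.069 (limma adjusted p = 0.000379). HMGCS1, the synthase that precedes HMG-CoA reductase, read 7.6 and 7.7 and then 7 and 7.1. DHCR7, which makes the last step to cholesterol, fell by 0.55, and STARD4, a sterol carrier, by 0.5. SREBF2, the transcription factor that switches these genes on, fell by 0.3 and INSIG1, which retains it in the endoplasmic reticulum, by 0.4.

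ESM1 and HAS2 had the largest rises among the named genes. ESM1, the secreted proteoglycan endocan, read 4.9 and 5 and then 6.6 and 6.9, and its difference of 1.8 ± 0.101 was the largest rise of any feature that passed (limma adjusted p = 2.6e-06), a 3.48-fold rise. HAS2, which makes hyaluronan at the cell surface, read 7.4 in both arrays and then 9.1 and 9.2, a difference of 1.75 ± 0.072 (limma adjusted p = 3.51e-07). For both genes the 1368 h arrays stood more than 1 log2 unit above the 1008 h arrays. The rest of the prostaglandin and hyaluronan list was mixed, with 4 risen and 4 fallen of 13, or 2 and 2 without either 1008 h array or the first 1368 h array. The shares over all genes were 4.93% risen and 3.45% fallen. CD44, the hyaluronan receptor, rose by 0.2 and PTGS1, the constitutive cyclooxygenase, by 0.25. VCAN, the hyaluronan-binding proteoglycan versican, fell by 0.5 and PTGES, the prostaglandin E synthase, by 0.3.

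Of 29 collagen and fibrous matrix genes, 9 rose and 1, BGN, fell (0 without the second 1368 h array), with a median of 0.1. Over all genes, 4.93% rose and 3.45% fell. POSTN, the matricellular protein periostin, read 6.5 in both arrays and then 7.4 in both, a difference of 0.9 ± 0.078 (limma adjusted p = 4.76e-05). The small leucine-rich proteoglycans LUM and DCN rose by 0.75 and 0.7, DCN from 7.9 in both arrays to 8.6 in both. A second, dimmer feature of DCN did not pass, at 0.15 (limma adjusted p = 0.776). COL5A2 rose by 0.6, COL12A1 and LOX, which crosslinks collagen, by 0.5, and COL1A2 by 0.3, whereas COL1A1 had a difference of -0.05. Fibroblast markers share several of these genes, and 7 of 12 rose and 1 fell. PDGFRA rose by 0.3, and PDGFRB, the other receptor for platelet-derived growth factor, fell by 0.35. Without the second 1368 h array, 4 of the fibroblast markers rose.

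Some contractile genes were higher. The median difference of 26 contractile and TGF-beta-responsive genes was 0.025, or 0.075 without the second 1008 h array. Of these genes, 9 rose and none fell, where 4.93% of all genes rose. The count was 4 without either 1008 h array, 5 without the first 1368 h array and 3 without the second. TAGLN, the actin-binding protein transgelin, read 7.6 in both arrays and then 8.3 and 8.4, a difference of 0.75 ± 0.055 (limma adjusted p = 1.36e-05). ACTG2, a smooth muscle actin, rose from 5.4 in both to 6 in both. CCN1 and CCN2, matricellular targets of the YAP coactivator, did not pass (limma adjusted p = 0.482 for each).

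ID1, an inhibitor of differentiation that binds and blocks basic helix-loop-helix factors and answers to BMP signals, had one of the 15 largest rises. It read 8.5 in both arrays and then 9.6 and 9.8, a difference of 1.2 ± 0.169 (limma adjusted p = 0.00141). ID2 and ID3 rose by 0.8 and 0.65, and ID4 had a difference of 0.25 (limma adjusted p = 0.347); these 3 were looked up after ID1 was seen. ID2B, a pseudogene of ID2, read 7.1 and 7 and then 8.1 and 8.2, and its probes may read ID2 itself. RFTN2, a raftlin of the plasma membrane, was the last of the 15 largest rises, from 6.6 in both arrays to 7.6 and 7.7.

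The other large falls came from genes of varied function. TCIM, a small regulator of transcription and immune response, read 6.3 in both arrays and then 4.6 and 4.9, a difference of -1.55 ± 0.135 (limma adjusted p = 5.39e-05). PEG10, an imprinted gene of retrotransposon origin, read 9.1 in both and then 7.8 in both. MYO1D, an unconventional myosin, read 5.9 in both and then 4.6 and 4.8. Each of these pairs was well separated. MEDAG read 7.7 and 8 and then 6.6 and 6.7, and PARM1 8 and 8.4 and then 6.9 and 7.1. PPIF, the mitochondrial cyclophilin, and BDKRB2, the bradykinin B2 receptor, fell by 1.05 each.

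AP-1 factors couple growth and stress signals to many SASP genes. Of 17 members, JUNB fell by 0.45 and CREB5 by 0.35, and 15 did not pass, where 8.37% of all genes passed in either direction. CREB5 alone fell when either 1008 h array or the second 1368 h array was left out. FOS read 7.8 and 7.9 and then 7.2 in both arrays, but the difference of -0.65 ± 0.288 did not pass (limma adjusted p = 0.268), and its 144 h arrays differed by 1 log2 unit, at 8 and 9. FOSL1 had a difference of 0.3 (limma adjusted p = 0.0607), FOSL2 and JUN of -0.2 each, and ATF3 of -0.15. Of 21 genes of ERK output and feedback, 2 rose and 3 fell, with 1 to 2 of each when any 1 array was left out. Over all genes, 4.93% rose and 3.45% fell. The ERK phosphatase gene DUSP4 fell by 0.35, and the transcription factor ETV1 rose by 0.4. The pathway inhibitors SPRED1 and SPRED2 moved in opposite directions, by 0.45 and -0.25. IER3 fell by 0.35, and 1 of its 6 features did not pass, at -0.25 (limma adjusted p = 0.147). Of the epidermal growth factor family, NRG1 fell by 0.3 among 6 genes, with a second feature at -0.5 that did not pass, and EREG read 12.2 and 12.1 and then 11.9 in both (limma adjusted p = 0.368).

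Amino acid synthesis genes were partly higher, in a comparison where 4.93% of all genes rose and 3.45% fell. Of 23 genes of amino acid and unfolded protein stress, 5 rose and 2 fell, and the risen count was 3 without either 1008 h array or without the second 1368 h array. PSAT1 and PHGDH, both enzymes of serine synthesis, rose by 0.75 and 0.5, PSAT1 from 7.1 in both arrays to 7.8 and 7.9. SLC7A5 and SLC3A2, the light and heavy chains of one amino acid transporter, rose by 0.5 and 0.2, and ASNS, asparagine synthetase, by 0.35. EDEM1, which sends misfolded glycoproteins to degradation, fell by 0.55 and TRIB3 by 0.25, of which 1 passed without the second 1008 h array or without either 1368 h array. Of 24 antioxidant genes, 4 rose, SLC7A11, TXNRD1, ME1 and TALDO1, by 0.25 to 0.45, and 2 rose without the second array of either time. GPX4, which detoxifies lipid peroxides, fell by 0.4.

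The remaining lists are set beside the 8.37% of all genes that passed in either direction. Of 24 interferon-stimulated genes 1 rose (RIGI, an RNA sensor, by 0.2), and of 24 lysosome and autophagy genes 1 rose (ACP3) and 2 fell (TPP1 and PSAP). In 27 hypoxia and glycolysis genes PDK1 rose and HK2, ALDOC and PFKFB4 fell, and in 22 WNT genes DKK3 and FZD7 rose. Of 16 Notch genes only NOTCH1 passed, a fall of 0.25. Of 13 chaperones HSPE1 rose and HSPA4L fell, and of 11 ribosomal protein genes RPS3 rose. None of 20 respiratory chain genes passed in limma's test, and at an unadjusted p under 0.05 there were 2 up and 1 down. Among markers of other cell types, TEK rose and TIE1 fell of 10 endothelial genes, CD68, a lysosomal glycoprotein, fell of 6 leukocyte genes, and ACTG2 and CNN1 rose of 7 smooth muscle genes. Their part in the results above was not tested.

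The times on either side, 792 h and 2112 h, share no array with the pair and show the same features in other arrays, although all 18 arrays gave 1 estimate of the spread. Between 792 h and 2112 h, 11049 features passed (21.1%), 5282 up (10.1%) and 5767 down (11%). Of the 1549 features that rose from 1008 h to 1368 h, 1302 (84.1%) rose there too, 10 fell and 237 did not pass. Of the 1180 that fell, 970 (82.2%) fell there too, 9 rose and 201 did not pass. The shared features are 24.6% of those that rose from 792 h to 2112 h and 16.8% of those that fell.

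By list, over the same outer pair, all 33 mitotic genes rose with a median of 2.75, where 15.1% of all genes rose and 31.1% passed in either direction. Of 30 replication genes 25 rose and 1 fell, with a median of 0.775, whereas 4 rose from 1008 h to 1368 h. Of 21 SASP cytokines 15 fell, where 15.9% of all genes fell, and none rose in limma's test, with a median of -1.35. Of 22 p53 targets 20 fell and 1 rose, and of 19 cholesterol genes 15 fell and 1 rose. CDKN1A and CDKN2B fell by 0.8 and 1.4, and CDKN2A, which did not pass in the inner pair, fell by 0.85.

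**Figure D4:**
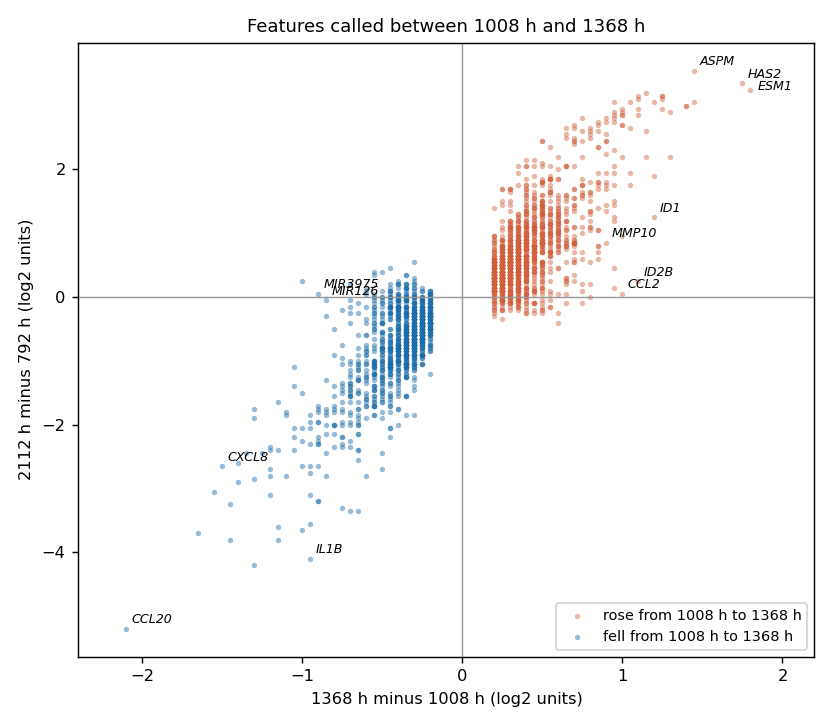
The 2729 features that passed between 1008 h and 1368 h, with that difference on the horizontal axis and the difference between 792 h and 2112 h on the vertical axis, both in log2 units. Red points rose and blue points fell from 1008 h to 1368 h. Most lie in the upper right (1302 passed as rises in both) and lower left (970 passed as falls in both), from CCL20 at -2.1 and -5.2 to HAS2 at 1.75 and 3.35, while CCL2 lies near 0 on the vertical axis.

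The neighbouring steps share arrays with the pair, so their values are given side by side only. ASPM had a difference of 0 from 792 h to 1008 h, of 1.45 from 1008 h to 1368 h and of 2.1 from 1368 h to 2112 h. MKI67 had -0.05, 1.1 and 2.1 over the same 3 steps. Both mitotic genes did not pass in the first step (limma adjusted p = 1 and 0.793), and both passed in the last. HAS2 had 0.5, 1.75 and 1.1, and ESM1 -0.15, 1.8 and 1.6. RFTN2 and POSTN had passed already from 792 h to 1008 h, at 0.8 and 1, and from 1368 h to 2112 h they had -0.1 and -0.2, which did not pass.

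The cytokines are given over the same 3 steps. CCL20 had -2.2, -2.1 and -0.9, CXCL8 had -1.1, -1.5 and -0.05, and IL6 had -0.95, -1.05 and -0.2. By 1368 h, CXCL8 at 7.6 and 7.8 and IL6 at 5.3 in both arrays stood beside T0 values of 7.8 and 7.7 and of 5.1 and 5.2. T0 was not typical of the earlier times, since from 144 h to 624 h CXCL8 read 4.5 to 5.3 and IL6 5.9 to 7.4. IL1A instead had -0.25, -0.95 and -2.35, and IL1B -0.45, -0.95 and -2.7. At 1368 h IL1B still read 10.7 and 10.9, against 6.7 in both T0 arrays. The differences between these steps were not tested. CDKN2B had 0.05, -0.3 and -1.15, and MSMO1 0.1, -0.6 and -1.1, so that in both the first step did not pass.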

How the data were processed

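Values came from the authors' deposited series table, whose log2 values (one per feature and array) were read as such from their range of -1.6 to 14; how they were summarised and scaled, and their log base, is not stated in any label or file. Labels alone placed the arrays in groups. Differences were fitted with limma 3.58.1 in R 4.3.3 (lmFit, eBayes, two-sided) over 18 replicative arrays in 9 groups, with 9 residual degrees of freedom, with data handled in the R package data.table (1.17.8) and pandas 2.3.3 (Python 3.11.15, figures in matplotlib 3.10.9), and the fit was tested on simulated data. No filter on dim features was used. P-values were adjusted over 52329 features by Benjamini-Hochberg.

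The probe table named 21055 features with 1 symbol, 1406 with several and 29868 with none; features with several were tested but not named. A gene is its feature with the highest mean. Of 651 listed members in 32 lists, 565 had such a feature. Genes were named as the 15 largest rises and falls that passed with groups apart, up to 4 passing members a list by size, and a set of senescence genes whatever they did, of which 1 is not reported here; further list members are given to account for the lists. Members and lists were chosen with earlier results of these data known. Promoters came from RefSeq (GRCh38.p14). The files give no slide or scan, so batches could not be examined. Replicate numbers were not used to pair the arrays in the main fit. The replicate differences at 1008 h and 1368 h correlated at -0.0145. Over 36 pairs of groups these correlations ran from -0.277 to 0.312, and 9 exceeded 0.1, which does not settle whether arrays with the same replicate number were handled together. Alternatives covered the arrays fitted, the replicate block, the variance prior, the scaling, dim and unnamed features and each array left out. The number of arrays limits the precision.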

Additional observations from a re-analysis of the deposited data

How the results depend on the processing

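The count of features that passed between 1008 h and 1368 h, 2729, moved with the arrays in the fit. A fit of the 4 compared arrays gave 4600 (2295 up, 2305 down), of which 1045 were calls of the 18-array fit; it had 2 residual degrees of freedom, and 6858 features had no spread within either group. A fit of the 8 arrays from 792 h to 2112 h gave 1557 (915 up, 642 down), which held 49% of the calls. With 1 array left out the count ranged from 1216 to 1627, with 664 to 983 up and 552 to 666 down; the lone array left was assumed to vary like the other groups. With the replicate number as a block, 2735 passed (1552 up, 1183 down), and 11266 between 792 h and 2112 h; every other alternative gave 2470 to 3062. Between 792 h and 2112 h, 7789 to 11504 passed over all alternatives, each within 1.5 times the 11049 reported. No difference of a named gene that passed was reversed under any alternative, and 70 of 105 passed under all those other than the 4-array fit. Cholesterol genes that fell ranged from 4 to 13, contractile genes that rose from 3 to 9, SASP genes that fell from 7 to 14 and mitotic genes that rose from 23 to 28. Rounding to 0.1 leaves many ties, and 79% of the features that passed had a mean at or above the median feature; signal over background was not available.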

Other observations

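Of 1477 long non-coding RNA genes 10 rose (0.677%) and 22 fell (1.49%). Of 685 microRNA genes 10 rose (1.46%) and 6 fell (0.876%), and of 215 small nucleolar RNA genes 5 fell (2.33%). Among 15654 protein-coding genes, 5.97% rose and 4% fell; the groups were not tested against each other. LINC00622 read 6.3 and 6.6 at 1008 h and 5.3 and 5.6 at 1368 h, a difference of -1 ± 0.147 (limma adjusted p = 0.00188). LUCAT1, a stress-induced long non-coding RNA, read 7 and 6.9 and then 6 and 6.4, and it fell by 2.3 from 792 h to 2112 h. The 5S RNA pseudogene RNA5SP157 read 4.1 and 4.3 and then 3 and 2.8, among the 15 largest falls. MIR3142, which shares its host transcript with MIR146A, fell by 0.7, and the MIR146A feature had a difference of -0.05 (limma adjusted p = 0.877). MIR126 fell by 0.85 and MIR3975 by 0.9, with differences of -0.05 and 0.05 from 792 h to 2112 h, which did not pass. The probes of a microRNA gene may read its precursor or host transcript rather than the mature form.

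A few named genes passed in opposite directions in the inner and the outer pair, 10 in all. MASTL, the kinase that restrains the mitotic phosphatase PP2A, read 6.5 and 6.6 at 1008 h and 6.2 in both arrays at 1368 h, and it rose from 6.7 and 6.6 at 792 h to 6.8 and 6.9 at 2112 h. FAM72D read 6.6 and 6.7 and then 6.3 and 6.4 in the inner pair, and 6.3 and 6.4 and then 6.9 in both in the outer pair; its family members are near-identical, so its probes may read several of them. KDM7A, a histone demethylase, rose by 0.4 in the inner pair and fell by 0.25 in the outer one. The other 7 were LPPR4, FAM218A, SNORA72, LINC00355, PPP1R7, TPPP3 and WSB1, with inner differences between -0.35 and 0.35. These genes were picked after their values were seen.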
